A study of Mus musculus with 6 samples.

Results

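Paired receptors are families of closely related surface proteins of myeloid cells in which some members activate the cell and others restrain it. The genes described here are the SIGLEC, CD300, TREM, LILR and PIR, PILR and SIRPB families together with Tarm1, Oscar, Milr1, Cd33, Cd22, Cd200r1, Lair1, the adaptors Tyrobp and Hcst, and Cd200, which is the ligand of Cd200r1. Membership was decided by gene symbol, and 48 of the 17714 genes in the deposited table matched. From textbook knowledge of the receptors' tails and adaptors, 22 were classed as activating and 13 as inhibitory. A further 10 receptors were left unassigned, and 2 adaptors and 1 ligand completed the set. The 6 libraries were made from total RNA of mouse heart, labelled as lymphatic endothelial cells of the genotype WT, 3 labelled sham and 3 labelled MI (myocardial infarction, the interruption of blood flow to part of the heart muscle), all at day 3. The labels give no strain, age, sex or agent. The protocols name heart tissue or primary endothelial cells of the heart without saying which was used here, mention serum-containing culture medium and give no sorting step, and nothing says that libraries came from separate animals, so p-values measure only the spread between libraries.

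An inhibitory receptor carries immunoreceptor tyrosine-based inhibitory motifs in its cytoplasmic tail, which when phosphorylated recruit the phosphatases SHP-1, SHP-2 (Ptpn6, Ptpn11) and SHIP-1 (Inpp5d). Its activating partner has a short tail and a charged residue in the membrane that binds an adaptor with an activating motif, mostly DAP12 (Tyrobp) or the Fc receptor gamma chain (Fcer1g), through which Syk is engaged. Both kinds are known mainly from macrophages, monocytes, neutrophils and dendritic cells, and in the injured heart they are best known on infiltrating and resident myeloid cells. Exceptions in the set are Cd300lg, known from capillary endothelium, and Cd200, a membrane protein of endothelium and other non-myeloid cells.

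The libraries differed in more than these genes. Totals were 3206373 to 3591135 counts in sham and 21154200 to 21689212 in MI, a 6.29-fold difference in mean depth that cannot be told apart from the groups. The leukocyte gene Ptprc rose from 106 ± 2.81 to 684 ± 111 CPM (counts scaled to TMM-adjusted library sizes; mean ± SD, n = 3 libraries here and throughout). Cd68 of macrophages rose from 99.95 ± 4.10 to 1448 ± 174 CPM. Pecam1 of endothelium fell from 1604 ± 19.6 to 386 ± 5.90 CPM, and Prox1, which defines lymphatic endothelium, from 7.12 ± 0.548 to 1.26 ± 0.456 CPM. Of 8 lymphatic markers 7 were lower in MI and 1 was higher. Lyve1 fell from 214 ± 3.89 to 12.5 ± 0.752 CPM and Flt4 from 69.4 ± 4.19 to 29.6 ± 1.33 CPM, while Pdpn rose from 4.93 ± 0.960 to 202 ± 7.01 CPM. All 8 pan-leukocyte and all 14 macrophage and monocyte markers were higher in MI, with summed levels of 560 to 576 against 4655 to 5034 CPM and of 4799 to 5041 against 20911 to 23976 CPM. All 10 pan-endothelial markers were lower, and so were all 6 cardiomyocyte markers, whose sum was 2024 to 2085 CPM in sham and 102 to 126 CPM in MI. In bulk libraries, fewer cells of a type and less RNA per cell cannot be told apart. Among the MI libraries, MI 1 stood apart, with a chi-square per gene of 35.3 and 21.3 against the other 2, which differed from each other by 4.14. Without MI 1, 38 members were called higher, the number found with it.

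Near-identical copies limit what counts can say about single members, so the copies are shown before the values. Of 46 members with a GENCODE transcript on GRCm38, 25 shared no window of 100 bases with a transcript of another gene. A further 9 shared under 5% of their windows, 7 shared 5% to under 50%, and 5 shared at least 50%: Cd300ld5 (100%), Cd300ld4 (86.7%), Pira2 (86.5%), Cd300ld3 (80.9%) and Sirpb1b (50.2%). Some near-copies were put in different classes. Over 907 aligned coding bases, inhibitory Lilrb4a and its neighbour Lilr4b were 96.03% identical. Inhibitory Pirb and activating Pira2 were 95.54% identical over 2039 bases, with an unbroken identical run of 477 bases. The first 2 pairs below, 60 coding bases each from GRCm38, 5′ to 3′ on the coding strand, are shown because an inhibitory receptor and its near-copy differ there by 1 base only (capital), and the third because 2 activating copies differ by 2.
Lilrb4a, chr10:51491434-51491493, plus strand: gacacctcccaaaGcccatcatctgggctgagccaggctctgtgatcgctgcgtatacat
Lilr4b, chr10:51481140-51481199, plus strand: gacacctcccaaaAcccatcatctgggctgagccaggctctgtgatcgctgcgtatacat
Pirb, chr7:3719842-3719901, minus strand: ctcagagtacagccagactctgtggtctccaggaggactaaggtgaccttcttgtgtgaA
Pira2, chr7:3844539-3844598, minus strand: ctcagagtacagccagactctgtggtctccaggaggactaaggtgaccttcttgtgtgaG
Sirpb1b, chr3:15574891-15574950, minus strand: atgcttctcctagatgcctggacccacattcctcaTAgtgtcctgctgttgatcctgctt
Sirpb1c, chr3:15848354-15848413, minus strand: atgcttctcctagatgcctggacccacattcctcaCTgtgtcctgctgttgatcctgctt
How the authors' counting divided reads that match several of these genes is not given in the sources used here. Values for single PIR, SIRPB1 and CD300LD genes, and the split between Lilrb4a and Lilr4b, are therefore uncertain, and sums over each family are given beside them.

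Of the 48 members, 43 had enough counts to be tested. With edgeR (quasi-likelihood test, p-values adjusted by Benjamini-Hochberg over 13370 genes), 38 were higher in MI, 4 were lower and 1 was not called. Over all genes tested the same test called 36.4% higher and 36.9% lower, 73.3% in all. Tested for a fold above 2, 33 members were higher and 3 lower, against 15.9% and 15.3% of all genes. The median log2 fold change was 2.80 over the members tested and -0.01 over all genes tested, whose quartiles were -0.83 and 0.79. Of the tested members, 14 passed the filter on low counts only through the MI libraries and entered the test because they were high there, so their calls and the counts and medians over the tested members are descriptions. They were Sirpb1a, Sirpb1c, Tarm1, Treml4, Trem3, Lilra6, Cd300e, Cd300lf, Siglecf, Cd22, Siglecg, Treml2, Cd300ld4 and Cd300ld5. Treml1 passed in neither group alone. Among the 28 that passed in the sham libraries as well, 24 were higher and 4 lower. The 4 that fell were Cd200, Cd300lg, Lilra5 and Siglech. The 5 not tested were Cd300c, Oscar, Siglec15, Siglecl1 and Cd300ld2, with means of at most 0.822 CPM in either group. Siglecl1 had 47 counts over the MI libraries, Cd300c 15, Cd300ld2 5 and Siglec15 4, all with 0 in sham, and Oscar, a receptor of osteoclasts and myeloid cells, had 4 counts in sham and 11 in MI. Of 4 osteoclast markers tested, 4 were higher, with sums of 13.9 to 18.5 CPM in sham and 200 to 254 CPM in MI and Calcr at 0 in sham. On the CPM scale the groups did not overlap for 37 tested members with MI higher and for 4 with MI lower, where 38% and 38.1% of all genes tested did so.

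**Figure D1:**
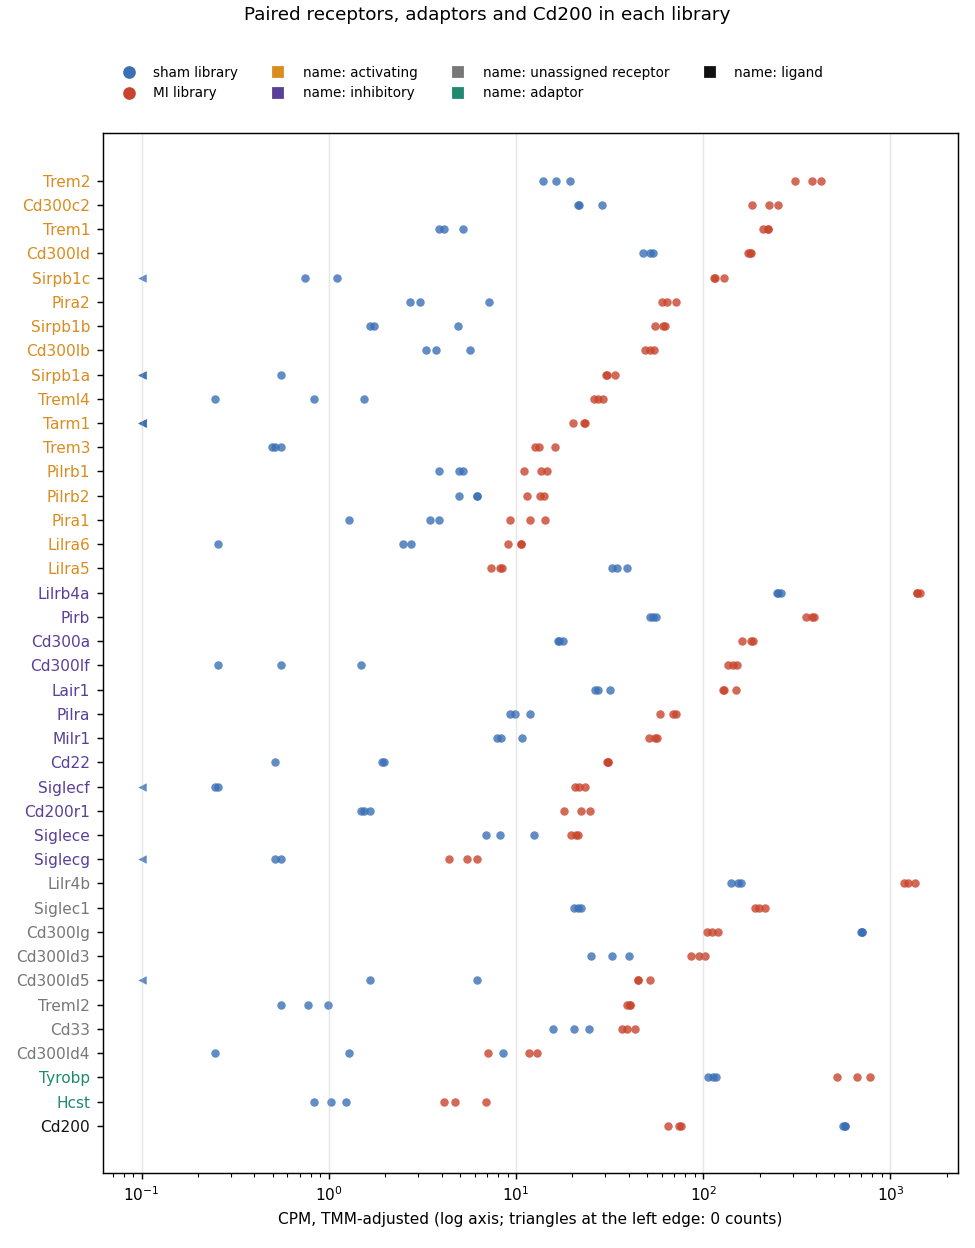
CPM (log axis) of each member with a mean of at least 5 CPM in either group, in the 3 sham (blue) and 3 MI (red) libraries, with names coloured by class; triangles mark libraries with 0 counts. The MI points lie to the right except for Lilra5, Cd300lg and Cd200, and the groups overlap for Cd300ld4.

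Among activating receptors, 17 of 19 tested were higher and 2 lower, with a median log2 fold change of 3.61. Over all genes tested, 36.4% were higher and 36.9% lower. Of the 19, 7 passed the filter only through the MI libraries, and 10 of the 17 called higher passed in sham as well. The count and the median are therefore descriptions. The TREM receptors were high in MI. Trem2, a lipid-sensing receptor that signals through Tyrobp, stood at 13.9, 16.4 and 19.3 CPM in sham and 310, 426 and 380 CPM in MI. The groups lie far apart, and MI 1 is the lowest of the MI libraries. Trem2 was 22.6-fold higher (log2 4.50 ± 0.16 SE, edgeR adjusted p = 1.99e-10). Trem1, a receptor of neutrophils and monocytes that amplifies inflammatory signals, had 5.20, 3.85 and 4.14 CPM in sham and 223, 210 and 222 CPM in MI. The 3 MI libraries were nearly level, and the rise was 49.3-fold (log2 5.62 ± 0.13 SE, edgeR adjusted p = 1.62e-11). Trem3, its neighbour on chromosome 17, had 6 counts in sham altogether and 14.0 ± 1.82 CPM in MI. Treml4 had 10 sham counts and 27.5 ± 1.55 CPM in MI, 31.4-fold higher. Trem1 and Trem3 shared 70.58% of 503 aligned coding bases and no 100-base window.

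Trem1 rose together with most tested markers of neutrophils, and also with all 14 of macrophages and monocytes. Of 9 neutrophil markers tested, 7 were higher, while Mpo and Ltf were not called. The summed level of the list was 39.0 to 47.8 CPM in sham and 650 to 811 CPM in MI. Ngp and Elane were at 0 in sham. Elane, Ly6g and Camp were too low to be tested, with means of 0.0519, 0.281 and 0.352 CPM in MI. Trem1 counts per 100 counts of Csf3r, the neutrophil growth factor receptor, were 28.5, 24.5 and 26.6 in sham and 93.9, 81.3 and 86.2 in MI. Trem2 counts per 100 counts of Cd68 were 13.5, 17.3 and 19.0 in sham and 24.6, 26.6 and 25.7 in MI. Both ratios were higher in every MI library (exact permutation test, two-sided p = 0.1, the smallest that 3 against 3 allows; adjusted p = 0.12 over the 12 ratios tested). The part of these cell types in the rises was not tested.

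The activating CD300 receptors rose less evenly. Cd300c2 had 21.5, 21.6 and 28.7 CPM in sham and 183, 252 and 224 CPM in MI, a 9.20-fold rise (edgeR adjusted p = 2.52e-09). Cd300lb, which pairs with Tyrobp, rose 12.2-fold from 4.23 ± 1.25 to 51.9 ± 2.87 CPM. Cd300ld already stood at 52.2, 53.7 and 47.8 CPM in sham and rose to 174, 179 and 179 CPM, 3.46-fold. Cd300e, a receptor of monocytes, went from 1.21 ± 0.627 to 3.45 ± 0.419 CPM. Among these 4 the rise was thus smallest for Cd300e and Cd300ld, as fitted folds of 2.84 and 3.46.

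The activating SIRPB1 genes and Tarm1 were near the detection limit in sham. Sirpb1c had 0.742, 0 and 1.10 CPM in sham, which is 7 counts in all, and 115, 115 and 129 CPM in MI. Its ratio of counts per depth was 198, with a 95% exact interval for counting error only of 95.8 to 491. Sirpb1a had 2 sham counts, all in sham 3, and 31.6 ± 1.95 CPM in MI, a ratio of 182 with an interval of 50.4 to 1506. Sirpb1b went from 2.76 ± 1.84 to 59.6 ± 3.79 CPM. Summed over the 3 genes, which removes the division of reads among them, the family had 2.47, 4.88 and 3.31 CPM in sham and 210, 207 and 215 CPM in MI. The family sum was 59.2-fold higher (edgeR adjusted p = 3.72e-11). Tarm1, which signals through the Fc receptor gamma chain, had no count in any sham library and 20.2, 23.2 and 22.9 CPM in MI. Against 3 counts over the sham group, that is at least 85.3-fold higher.

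The activating PIR and PILRB genes rose by smaller steps. Pira2 went from 4.33 ± 2.48 to 65.1 ± 5.59 CPM, Pira1 from 2.87 ± 1.39 to 11.8 ± 2.52 CPM and Lilra6, the third activating gene of this cluster, from 1.83 ± 1.37 to 10.1 ± 0.891 CPM. The sham libraries disagreed on single genes, with Lilra6 at 2.47, 0.257 and 2.76 CPM. The sum of these 3 with Pirb, which holds most of it, was 62.4, 60.4 and 65.7 CPM in sham and 444, 475 and 470 CPM in MI (7.38-fold). This sum does not settle the division of reads. Pira2 shared 86.53% of its windows with other genes but only 28.75% with genes in the deposited table. Pira1 had no transcript to compare. Pilrb1 rose 2.80-fold to 13.1 ± 1.83 CPM and Pilrb2 2.25-fold to 13.0 ± 1.41 CPM.

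Both activating receptors that fell did so in every library. Lilra5, an activating receptor of monocytes and macrophages, had 39.3, 32.6 and 34.5 CPM in sham and 8.17, 7.31 and 8.46 CPM in MI. It was 4.45-fold lower (log2 -2.15 ± 0.13 SE, edgeR adjusted p = 2.31e-08). Lilra5 shared no 100-base window with any other gene. Siglech, a receptor of plasmacytoid dendritic cells and some resident macrophages, had 4.45, 2.57 and 3.87 CPM in sham and 1.33, 1.32 and 1.35 CPM in MI (2.71-fold lower, edgeR adjusted p = 0.000832). Of 3 markers of plasmacytoid dendritic cells tested, 1 was higher and 2 lower, the summed list stood at 46.4 to 59.8 CPM in sham and 4.05 to 5.24 CPM in MI, and Ccr9 and Klk1 were at 0 in sham. Most of that sum was Cox6a2, which is also a gene of heart muscle and went from 52.2 ± 6.50 to 2.53 ± 0.439 CPM. The part of those cells was not tested.

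**Figure D2:**
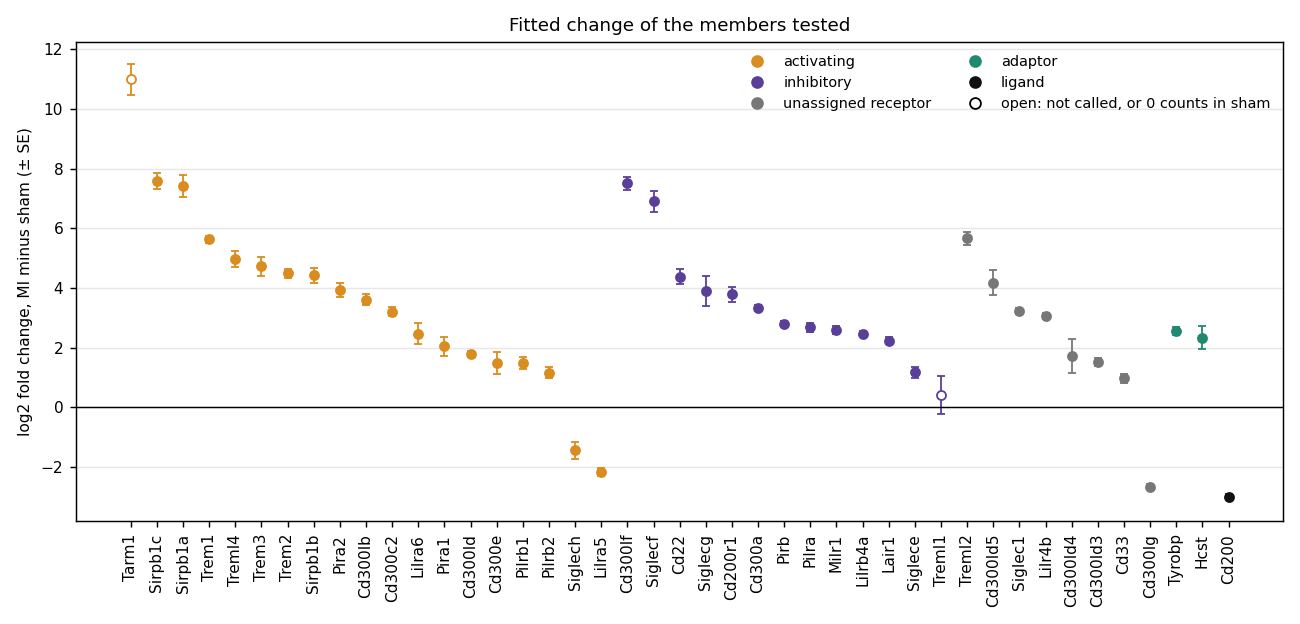
Fitted log2 fold change (MI minus sham, ± SE) of the 43 members tested, by class and in order of size; open symbols mark Treml1, which was not called, and Tarm1, which had 0 counts in sham and whose fitted value depends on the prior count. Activating and inhibitory members cover the same span between about 1 and 8 apart from Tarm1, Treml1 and the 2 activating genes below 0.

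Both adaptors rose. Tyrobp, which carries the signal of Trem2, Trem1 and many other activating members, had 112, 117 and 106 CPM in sham and 517, 777 and 664 CPM in MI. The MI libraries were spread but all lay above sham, and the rise was 5.84-fold (log2 2.55 ± 0.14 SE, edgeR adjusted p = 7.17e-09). Hcst (DAP10), which engages phosphoinositide 3-kinase, rose from 1.03 ± 0.205 to 5.25 ± 1.45 CPM. Relative to Ptprc the groups overlapped for Tyrobp, whereas per 100 counts of the pan-leukocyte list it was lower in MI, at 19.7 ± 1.23 and 13.4 ± 2.18. Per 100 Ptprc counts it had 103, 111 and 103 in sham and 64.0, 131 and 102 in MI, with MI 1 the lowest (exact permutation test, two-sided p = 0.7). Trem2 was higher relative to its adaptor, going from 6.23, 7.03 and 9.19 to 29.9, 27.5 and 28.7 TPM per 100 TPM of Tyrobp (TPM is scaled by gene length and allows genes to be compared). The groups did not overlap (exact permutation test, two-sided p = 0.1, adjusted 0.12).

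Among inhibitory receptors, 12 of 13 were higher and none lower, with a median log2 fold change of 2.80, where 36.4% of all genes tested were higher. Of the 13, 4 passed the filter only through the MI libraries, against 7 of 19 activating receptors. The medians of the classes thus depend on the filter and are descriptions. For Treml1 the test gave an edgeR adjusted p of 0.567. The most abundant by TPM was Lilrb4a, a receptor of macrophages and dendritic cells, at 259, 250 and 248 CPM in sham and 1431, 1386 and 1393 CPM in MI. Each group was tightly clustered, and the rise was 5.56-fold (log2 2.48 ± 0.07 SE, edgeR adjusted p = 6.82e-11). Pirb, the inhibitory PIR and a receptor for class I histocompatibility molecules, had 53.7, 55.7 and 52.2 CPM in sham and 353, 392 and 382 CPM in MI, 6.97-fold higher. Cd300a, which binds phospholipids of dying cells, rose 10.1-fold from 17.2 ± 0.534 to 174 ± 12.4 CPM. Lair1, a collagen receptor, rose 4.73-fold to 136 ± 12.3 CPM, and Pilra 6.42-fold to 66.3 ± 6.64 CPM. Milr1 (allergin), known from mast cells and also from dendritic cells, rose 6.04-fold to 54.4 ± 2.72 CPM. Of 2 mast cell markers tested, 1 was higher and 1 lower, with the list's sum at 30.3 to 46.4 CPM in sham and 122 to 142 CPM in MI. Hdc carried the rise of the sum, from 11.3 ± 3.76 to 117 ± 11.8 CPM, while Kit fell. The defining mast cell genes Cma1 and Fcer1a were at 0 in sham and in MI, respectively, and the part of mast cells was not tested.

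Cd300lf, which binds phosphatidylserine and sphingolipids, had 1.48, 0.257 and 0.552 CPM in sham, 9 counts in all, and 135, 151 and 144 CPM in MI. The ratio of counts per depth was 184, with an interval of 96.9 to 403 for counting error. In sham it was near the limit of detection. Cd200r1, the receptor of Cd200, had 1.48, 1.54 and 1.66 CPM in sham and 24.8, 18.1 and 22.1 CPM in MI, a 13.8-fold rise (edgeR adjusted p = 4.26e-08).

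The inhibitory SIGLEC genes, which bind sialic acid, differed among themselves. Siglece, the main one of mouse neutrophils and macrophages, rose 2.26-fold, from 6.93, 8.22 and 12.4 to 19.7, 20.9 and 21.4 CPM. Siglecf, known from eosinophils and alveolar macrophages and also seen on neutrophils of inflamed tissue, had 2 sham counts and 23.2, 21.8 and 20.7 CPM in MI, a ratio of 127 with an interval of 35.0 to 1047. The eosinophil markers summed to 0 to 0.828 CPM in sham and 7.73 to 11.0 CPM in MI, most of it Ccr3, while Prg2 was at 0.105 ± 0.0531 CPM in MI, and Prg2 and Ear6 were at 0 in sham. The part of eosinophils was not tested. Cd22, best known from B cells, had 1.98, 0.514 and 1.93 CPM in sham and 31.0, 30.9 and 30.8 CPM in MI (fitted fold 20.9). The B cell markers went both ways, and only 4 of 8 had enough counts to be tested. Of these 4, 1 was higher (Cd79b, 2.07-fold) and 2 lower, and the list summed to 9.25 to 12.6 CPM in sham and 6.2 to 9.0 CPM in MI. The part of B cells was not tested. Siglecg, also known from B cells, rose from 0.355 ± 0.308 to 5.35 ± 0.901 CPM on 4 sham counts. Treml1, a receptor of platelets, had 0.679 ± 0.787 CPM in sham and 0.930 ± 0.0788 CPM in MI. Of 4 platelet markers tested, 2 were higher and 2 not called, and the list summed to 110 to 129 CPM in sham and 337 to 449 CPM in MI, most of it Pf4, which macrophages can also express.

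By TPM, Cd300lg, Cd200, Tyrobp, Lilrb4a and Lilr4b led the set in sham, and Tyrobp, Lilrb4a, Lilr4b, Trem2 and Cd300c2 in MI. The receptors of unassigned class follow. Lilr4b, the near-copy of Lilrb4a shown above, had 141, 158 and 153 CPM in sham and 1351, 1187 and 1238 CPM in MI, 8.35-fold higher (log2 3.06 ± 0.09 SE, edgeR adjusted p = 5.76e-11). Relative to Lilrb4a it had 56.7, 65.4 and 63.5 TPM per 100 TPM in sham and 95.9, 91.6 and 93.2 in MI, with no overlap (exact permutation test, two-sided p = 0.1, adjusted 0.12). The 2 genes shared 10.54% and 14.27% of their windows, and their summed counts rose 6.61-fold. Siglec1, the sialoadhesin of macrophages, rose 9.39-fold from 21.4 ± 1.00 to 201 ± 12.0 CPM. Treml2, known from neutrophils, macrophages and B cells, rose from 9 counts in all of sham to 40.0 ± 0.921 CPM in MI. Cd33, whose mouse form lacks a typical inhibitory motif, rose 1.97-fold from 20.2 ± 4.28 to 39.7 ± 3.06 CPM, the smallest rise called in the set.

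The unassigned CD300LD copies could hardly be told apart. Cd300ld3 and Cd300ld5 were 99.59% identical over 735 coding bases, with an unbroken run of 705. Cd300ld5 stood at 0, 6.16 and 1.66 CPM in sham and 44.7, 44.6 and 52.0 CPM in MI. Cd300ld4 stood at 0.247, 1.28 and 8.56 CPM in sham and 13.0, 7.04 and 11.7 CPM in MI. Cd300ld3 rose 2.88-fold from 32.7 ± 7.61 to 94.4 ± 8.02 CPM (edgeR adjusted p = 1.48e-06). Summed with Cd300ld, Cd300ld2 and Cd300ld3, the counts were 92.8, 93.7 and 83.7 CPM in sham and 333, 326 and 329 CPM in MI. The family sum was even within each group and 3.66-fold higher in MI (edgeR adjusted p = 1.34e-09). For Cd300ld4 alone the groups overlapped (edgeR adjusted p = 0.017). That call was lost with DESeq2 (adjusted p = 0.209), without sham 1 (edgeR adjusted p = 0.0849) and without sham 2 (edgeR adjusted p = 0.0949).

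**Figure D3:**
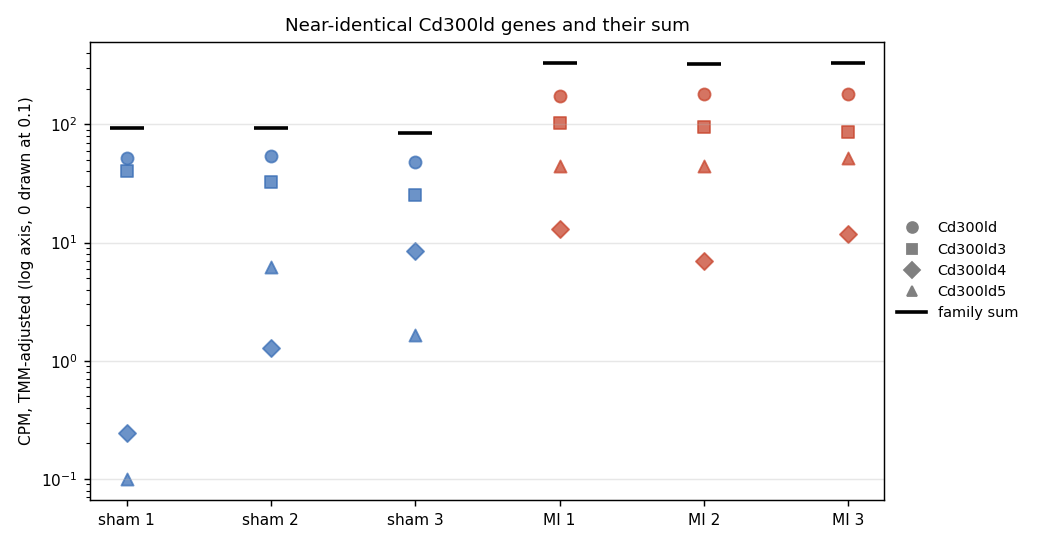
CPM (log axis) of 4 closely related Cd300ld genes in each library, with the family sum as a black bar; values of 0 are drawn at 0.1. Cd300ld4 and Cd300ld5 scatter over sham libraries while the sum stays between 83.7 and 93.7 CPM.

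The 2 members known from endothelium fell. Cd300lg, which binds L-selectin on capillary endothelium, had 699, 702 and 706 CPM in sham and 104, 119 and 111 CPM in MI. It was 6.29-fold lower (log2 -2.65 ± 0.08 SE, edgeR adjusted p = 8.65e-11). Cd200, the ligand that restrains Cd200r1-bearing myeloid cells, had 574, 572 and 560 CPM in sham and 76.2, 64.6 and 73.8 CPM in MI, 7.95-fold lower (log2 -2.99 ± 0.09 SE, edgeR adjusted p = 6.94e-11). Among the 10 pan-endothelial markers the falls ranged from 3.76-fold for Cdh5 to 8.11-fold for Emcn, and Pecam1 was 4.15-fold lower. After Emcn the next largest fall was 6.05-fold for Cldn5. Both members thus fell more than every marker of that list except Emcn. The summed pan-endothelial list stood at 8021 to 8127 CPM in sham and 1762 to 1819 CPM in MI. Per 100 Pecam1 counts, Cd300lg went from 44.2, 43.6 and 43.6 to 27.5, 30.6 and 28.7, and Cd200 from 36.3, 35.6 and 34.6 to 20.1, 16.6 and 19.0. Both were thus lower in every MI library also relative to Pecam1 (exact permutation test, two-sided p = 0.1 each, adjusted 0.12). Receptor and ligand moved in opposite directions, and Cd200r1 went from 0.333 ± 0.0235 to 36.7 ± 2.71 TPM per 100 TPM of Cd200.

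The levels of the activating and inhibitory classes were compared per gene length. Activating receptors summed to 185, 180 and 196 TPM in sham and 1609, 1699 and 1691 TPM in MI, an 8.89-fold difference of means. Inhibitory receptors summed to 441, 437 and 427 TPM in sham and 2599, 2293 and 2404 TPM in MI, 5.59-fold. Inhibitory TPM exceeded activating TPM in all 6 libraries. Activating TPM per 100 inhibitory TPM was 42.0, 41.3 and 46.0 in sham and 61.9, 74.1 and 70.4 in MI, so the groups did not overlap. A pair of genes carried much of this. Without Lilrb4a the ratio was 177 ± 9.93 in sham and 213 ± 10.6 in MI, with activating TPM then the larger. Without Trem2 it was 36.2 ± 1.67 and 44.2 ± 2.34. With Lilr4b counted as activating it was 89.9 ± 4.26 and 132 ± 3.46. The direction was the same in these 3 versions, the size was not, and no test is given because the rule for the members was set with results known.

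Within the PILR, CD300 and PIR families the activating share was lower in MI or overlapped between groups. Pilrb1 and Pilrb2, the activating partners of Pilra, had 294, 269 and 189 TPM per 100 TPM of Pilra in sham and 96.0, 98.1 and 101 in MI (exact permutation test, two-sided p = 0.1, adjusted 0.12). Cd300lb, Cd300ld and Cd300c2 together went from 476 ± 42.7 to 171 ± 8.29 TPM per 100 TPM of Cd300a and Cd300lf. Cd300e and Cd300c were not part of this ratio. Cd300lf passed the filter only through the MI libraries and went from 0.823 ± 0.635 to 135 ± 1.42 TPM. Its entry lowers the ratio in MI, so the size of the CD300 difference is a description. The activating PIR genes stood at 19.1, 10.2 and 28.4 TPM per 100 TPM of Pirb in sham and 24.3, 19.5 and 22.3 in MI, which overlap. Trem1 per 100 Trem2 TPM, a ratio of activating genes only, went from 12.9 ± 5.95 to 22.1 ± 4.72. These values overlapped as well (exact permutation test, two-sided p = 0.2). No activating share was formed for the TREM family, whose inhibitory member Treml1 had 8 sham counts. Treml1 stood at 1.11 ± 1.25 TPM in sham and 1.35 ± 0.0252 TPM in MI, while Trem2 went from 29.9 ± 4.89 to 595 ± 59.2 TPM. With the genes chosen here, the activating share was lower in MI in the PILR and CD300 families and higher in the sum over all families.

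**Figure D4:**
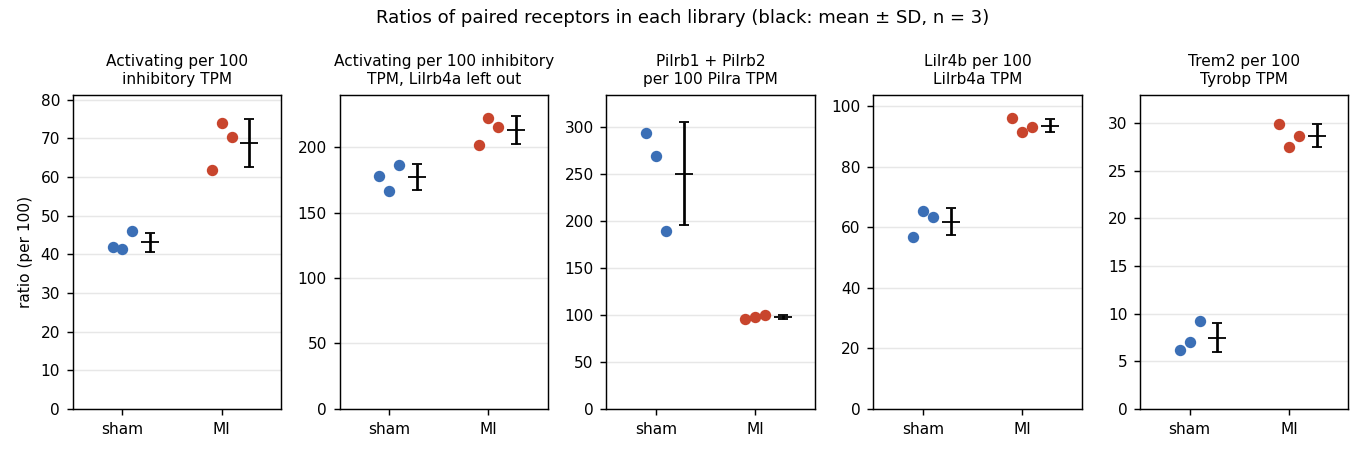
Ratios of TPM in each sham (blue) and MI (red) library, with mean ± SD in black (n = 3). The activating to inhibitory ratio is higher in MI with and without Lilrb4a, Pilrb1 and Pilrb2 are lower relative to Pilra, and Lilr4b and Trem2 are higher relative to Lilrb4a and Tyrobp.

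Relative to Ptprc, the members went both ways. Among all genes tested, counts per 100 Ptprc counts were higher in every MI library than in every sham library for 3.63% and lower for 90%, and Ptprc itself was 6.45-fold higher in CPM. Among the 43 tested members, 19 were higher, 12 lower and 12 overlapped. Of activating receptors 10 were higher, 5 lower and 4 overlapped, and of inhibitory receptors 6, 3 and 4. Trem1 went from 4.14 ± 0.579 to 32.3 ± 4.19 and Cd300lf from 0.696 ± 0.524 to 21.4 ± 4.40 counts per 100 Ptprc counts. Trem2 went from 15.7 ± 3.00 to 56.2 ± 16.8. Pirb stood at 50.9 ± 1.71 and 56.1 ± 11.4, and Milr1 and Pilra overlapped too, but per the pan-leukocyte list all 3 were lower in MI (Pirb 9.50 ± 0.462 to 7.74 ± 0.153 counts per 100). Members lower per Ptprc although higher in CPM included Siglece (8.74 ± 2.94 to 3.08 ± 0.569), Cd33 (19.2 ± 4.30 to 5.85 ± 0.477), Cd300ld (48.4 ± 2.16 to 26.4 ± 4.43) and Lair1 (26.9 ± 2.03 to 20.0 ± 1.53). Lilrb4a was also lower (238 ± 1.91 to 208 ± 28.6), whereas its near-copy Lilr4b was higher (143 ± 11.2 to 186 ± 16.8). Per the pan-leukocyte list Lilrb4a was lower and Lilr4b overlapped, and the split of reads between them is uncertain. Lilra5 went from 33.5 ± 2.65 to 1.18 ± 0.152. Relative to the summed pan-leukocyte list, which includes Ptprc, 14 members were higher, 18 lower and 11 overlapped, and 2.9% and 92.5% of all genes tested were higher and lower. By this list 8 activating receptors were higher, 6 lower and 5 overlapped, and of inhibitory receptors 5, 6 and 2. The 14 higher by the list were also higher by Ptprc, and they were Sirpb1a, Sirpb1b, Sirpb1c, Trem1, Trem2, Trem3, Treml4, Treml2, Tarm1, Cd300lf, Cd300a, Siglecf, Cd22 and Cd200r1. Of these, Sirpb1a, Sirpb1c, Trem3, Treml4, Treml2, Tarm1, Cd300lf, Siglecf and Cd22 passed the filter only through the MI libraries. They entered because they were high there, so these counts beside the shares of all genes are descriptions. The list and Ptprc are also not independent references.

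**Figure D5:**
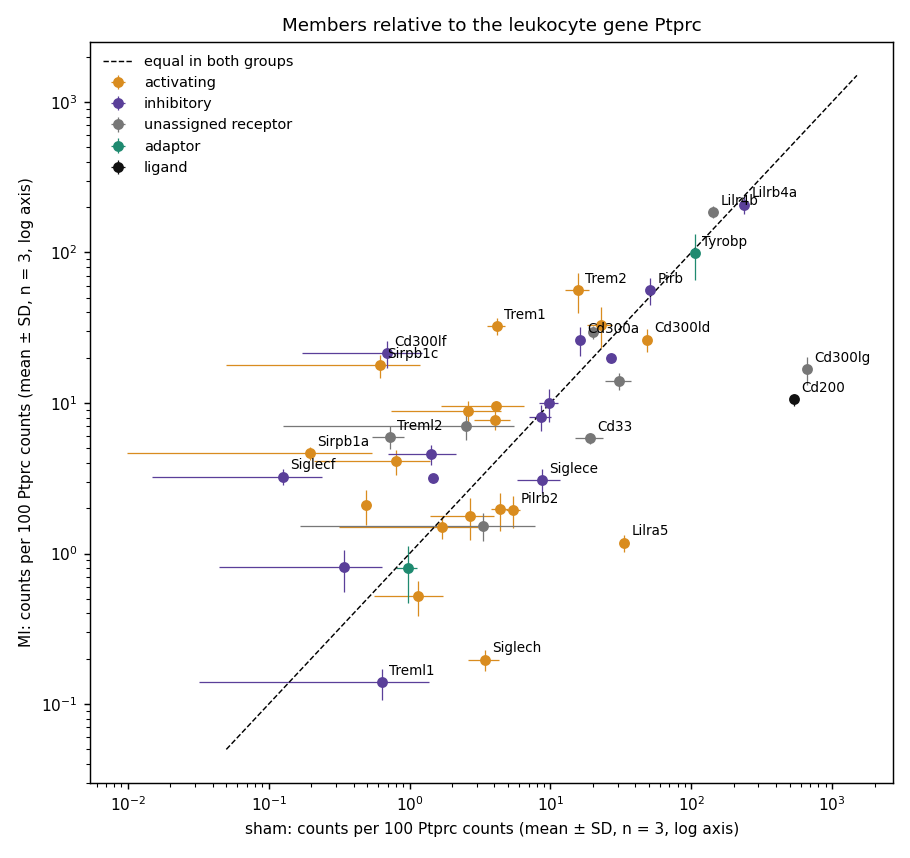
Counts per 100 Ptprc counts in sham (x) and MI (y), mean ± SD over 3 libraries, both axes logarithmic; the dashed line marks equal values, lower whiskers are shortened where the SD would reach 0, and Tarm1, at 0 in sham, is not drawn. Cd300lf, Sirpb1c and Trem1 lie above the line and Lilra5, Cd300lg and Cd200 below it.

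Most signalling genes of both arms were higher, where 36.4% of all genes tested were. Of 22 tested genes of the activating cascade, 20 were higher, 1 was lower (Plcg1) and 1 not called (Sos1), with a median log2 fold change of 2.63. Syk, the kinase recruited by the adaptors, rose 17.2-fold from 44.0 ± 2.34 to 758 ± 10.9 CPM. Pik3r5 rose 29.5-fold, Lat2 14.5-fold and Lcp2, the SLP-76 scaffold, 8.42-fold. Of 14 inhibitory effectors, 11 were higher, 1 was lower (Rasa1) and 2 not called (Inppl1 and Ptpn11), with a median of 1.70. Inpp5d, which encodes SHIP-1, rose 5.60-fold from 51.0 ± 3.41 to 285 ± 2.29 CPM and Ptpn6, which encodes SHP-1, 7.21-fold from 20.4 ± 3.79 to 147 ± 16.6 CPM. Ptpn11, the broadly expressed SHP-2, stood at 114 ± 1.88 and 108 ± 7.27 CPM. Ubash3b rose 4.71-fold and Sh2d1b1 25.2-fold.

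Among other paired receptors and ligands, most were higher. Of 19 tested, 15 were higher, 3 lower (Pecam1, Ceacam1 and Clu) and 1 not called (Adam10, a sheddase of Trem2), with a median of 2.01. Clec4e and Clec4d, lectin receptors that use the Fc receptor gamma chain, rose 76.4-fold and 43.7-fold, Sirpa, the inhibitory receptor for Cd47, 12.7-fold and Clec12a 7.06-fold. Of 19 sialic acid enzymes tested, which make or remove the ligands of SIGLEC receptors, 7 were higher and 10 lower, with a median of -0.40. The share higher is near that of all genes tested. St3gal6 was 3.90-fold and St6galnac3 4.24-fold lower, while St3gal1 was 2.90-fold and the sialidase Neu1 2.96-fold higher.

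Most promoters in the set could be read in RefSeq, with 38 of 48 members matched. In the 250 bases before the start, the letters GAGGAAG on either strand, a core of sites for the myeloid factor PU.1, occurred at 18 of 38 members (47.37%) and in 10.61% of 32851 RefSeq promoters of that length. Copies share sequence, since Cd300ld3, Cd300ld4 and Cd300ld5, and Pira1, Pira2, Pirb and Lilra6, are 7 of the 18. TGANTCA, the letters of AP-1 sites, occurred at 1 member (Trem2) and in 6.749% of all promoters. CCGGAAGT (ETS) and the NF-kB motif occurred at 0 members and in 2.877% and 0.9802% of all promoters. Such a match describes letters and is not a measured site. The promoters of 4 members with this core and rises of different size are printed, GRCm38.p6, 5′ to 3′ on the gene's strand, with the PU.1 letters, or their reverse complement CTTCCTC, in capitals.
Trem2, chr17:48346151-48346400, plus strand: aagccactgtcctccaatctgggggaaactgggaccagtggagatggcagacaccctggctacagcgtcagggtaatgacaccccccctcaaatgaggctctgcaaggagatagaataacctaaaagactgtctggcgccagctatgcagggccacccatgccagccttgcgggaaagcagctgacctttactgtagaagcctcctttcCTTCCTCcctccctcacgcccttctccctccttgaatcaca
Pirb, chr7:3720383-3720632, minus strand: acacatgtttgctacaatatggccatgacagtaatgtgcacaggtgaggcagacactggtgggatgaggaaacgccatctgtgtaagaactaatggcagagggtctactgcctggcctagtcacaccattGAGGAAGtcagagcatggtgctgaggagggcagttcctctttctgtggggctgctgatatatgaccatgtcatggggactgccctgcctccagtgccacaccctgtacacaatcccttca
Cd300lf, chr11:115133993-115134242, minus strand: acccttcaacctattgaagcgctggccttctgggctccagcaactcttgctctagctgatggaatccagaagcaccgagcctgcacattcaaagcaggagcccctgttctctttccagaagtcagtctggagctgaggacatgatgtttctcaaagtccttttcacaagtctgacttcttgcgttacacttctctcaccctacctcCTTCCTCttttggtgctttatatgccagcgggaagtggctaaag
Siglecf, chr7:43351091-43351340, plus strand: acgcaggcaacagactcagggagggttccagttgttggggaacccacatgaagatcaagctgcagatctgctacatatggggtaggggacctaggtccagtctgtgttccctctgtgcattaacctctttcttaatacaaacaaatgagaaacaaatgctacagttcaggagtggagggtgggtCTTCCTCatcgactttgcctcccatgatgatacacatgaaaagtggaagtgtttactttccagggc
The core lay on the gene's own strand at Pirb and on the opposite strand at the other 3. Pirb rose 6.97-fold and Trem2 22.6-fold, with ratios of 127 for Siglecf and 184 for Cd300lf. Members not printed differed from this order. Siglece and Lair1, with the core on the opposite strand, rose 2.26-fold and 4.73-fold, and Pira2, with it on its own strand, 15.3-fold. A link of strand and size was not tested.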

How the data were processed

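RNA of 6 mouse heart libraries, labelled as lymphatic endothelial cells, was compared between sham and MI at day 3, 3 libraries each, grouped by title. The deposited table holds estimated counts per gene with 2 decimals, which the authors made from reads mapped to GRCm38, per the series' design text (GRCm38.p6 in the submitters' processing notes, which also name Agilent Feature Extraction 9.1 with no role). It also holds FPKM, TPM and scaled read counts, a signal value, computed by the authors. FPKM, scaled counts and the authors' group averages were not used. Aligner, counting program, strand setting and the handling of reads that match several genes are not given in the sources used here.

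Estimated counts were rounded. The package edgeR 4.0.16 (R 4.3.3) kept 13370 genes with enough counts (filterByExpr), scaled by TMM, and fitted a quasi-likelihood model on group alone. A gene was called where its p (two-sided, Benjamini-Hochberg over all genes tested) was under 0.05. The SE of a log2 fold change was taken from it and the F statistic. The shallower sham libraries limit detection, and 3 counts over sham correspond to 0.260 CPM. Intervals are exact at 95% and cover counting error only. The symbol rule for the members and the gene lists were chosen with earlier results of these data known, so no list was tested. Members with at least 5 CPM in either group, and 4 genes with the smallest p of each pathway list, are given with values; other genes were named for exceptions or as references. Window sharing used GENCODE transcripts of GRCm38, genes at overlapping positions left out. Promoters were taken from RefSeq (GRCm38.p6). Alternatives were DESeq2 1.42.0, limma 3.58.1 on log2(TPM + 1) and log2(TPM + 0.1), other scalings and filters, the replicate number as a block, thinned MI counts and each library left out. The scripts were tested on simulated data.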

Additional observations from a re-analysis of the deposited data

How the results depend on the processing

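The number of members called higher, 38, was 36 to 39 and the number lower, 4, was 3 or 4 over DESeq2, RLE and total-count scaling, no and a stricter filter, both limma fits, MI counts thinned to sham depth, the replicate block and each library left out. The test for a fold above 2, the family sums and the exclusion of members sharing windows were added after seeing the data. Testing for a fold above 2 left 33 members higher and 3 lower and called 4160 genes in place of 9801 (15.9% of genes higher and 15.3% lower), because it asks for a larger change. Summing near-identical families left 27 higher among fewer genes, and leaving out members that share at least 50% of their windows left 33. Over 43 members, 668 of 678 log2 fold changes kept their direction and call. The exceptions were Cd300ld4, Cd300e, Cd33, Pilrb2, Siglece and Siglech, no longer called in 9 values, of which 6 come from testing for a fold above 2, and Treml1, whose log2 fold change of 0.42 ranged from -0.11 (edgeR adjusted p = 0.873) to 1.80 with single libraries left out; the cause was not tested. Scaling to total counts moved the median of all genes to -0.36 and the share of higher calls among all calls from 49.6% to 34.9%, with 38 members still higher. With the replicate block, 9635 genes, 38 members higher and 4 lower were called. The numbers share no source in the labels, same-numbered deviations correlated by -0.068, -0.037 and 0.00012, and 0 of 3 sham libraries correlated best with their own number. Reading the class from protein sequence and leaving out members by protein identity were not run, since no protein sequences were used here. Depth differs 6.29-fold between the groups and limits detection in sham.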
